A study of Columba livia with 4 samples.

Results

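Acetylated domains of middle length that carry no SOX10 peak were described in primary melanocytes of the domestic pigeon (Columba livia), the pigment-producing cells of skin and feather. Peaks of acetylated lysine 27 of histone H3 (H3K27ac) on the same scaffold were joined over gaps of up to 5 kb, and domains were selected on length and SOX10 overlap: a domain was included if it was at least 5 kb and under 20 kb long and shared no base with any SOX10 peak. This gave 2101 SOX10-free domains among 17608 joined H3K27ac domains and among 3297 domains of that length. The other 1196 domains of that length shared at least 1 base with a SOX10 peak and are called SOX10-holding domains. SOX10-free domains were therefore 63.7% (exact 95% binomial interval 62.1 to 65.4%) of the domains of that length, against 81.6% of H3K27ac domains of any length. Length and the presence of a SOX10 peak chose the domains, so neither share is a finding about them.

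The 3 peak lists used came from wild-type cells, 1 library each, of chromatin precipitated for SOX10, H3K27ac or H3K27me3, the trimethylated form of the same lysine; a 4th sample, input chromatin, has no peak list used here. All 4 samples shared one culture medium with fetal bovine serum (10%), Nu-serum (5%), the phorbol ester TPA (85 nM), cholera toxin (40 ng/mL) and endothelin-3 (10 ng/mL). Fixation took 15 min in 1% formaldehyde, and chromatin sheared to an average of 300 to 500 bp was read as single ends of 75 nt. The lists held 6579 SOX10 peaks, 34223 H3K27ac peaks and 36792 H3K27me3 peaks. The sources used here give no read totals, so the depth behind a value is unknown. A SOX10-free domain is one with no listed SOX10 peak, and the weakest listed peak had a q-value of 0.0462. The identity of the cells could not be checked against pigment-cell genes, because no annotation of the scaffolds' assembly was used here.

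SOX10 is a transcription factor of the neural crest that acts with MITF to drive pigment genes in melanocytes. H3K27ac is laid down by the acetyltransferases p300 and CBP at active enhancers and promoters, including promoters of genes that every cell uses, and several neighbouring acetylated elements can form a longer domain. H3K27me3 is written on the same residue by Polycomb repressive complex PRC2 at silenced genes. One histone tail cannot carry both marks, but a peak list comes from many cells and alleles, so an overlap of peaks does not show both marks on one molecule.

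The SOX10-free domains spanned 18.2 Mb and held 7149 H3K27ac peaks, 20.9% of all. They carried 21.3% of the bases under H3K27ac, somewhat more than the 17.7% in the fewer SOX10-holding domains of the same length range. Per domain the order was the reverse, with a mean of 4362 bp under H3K27ac in SOX10-free and 6338 bp in SOX10-holding domains. SOX10-free domains were the shorter of the 2 groups: their median length was 7549 bp (interquartile range 6066 to 10360 bp), and that of SOX10-holding domains 9286.5 bp (6901 to 13341 bp). The share without SOX10 was lower in longer domains. It was 73.1% (70.7 to 75.4%) at 5 to 7.5 kb, 63.8% (60.3 to 67.2%) at 7.5 to 10 kb, 55.4% (51.7 to 59.0%) at 10 to 15 kb and 43.9% (38.7 to 49.1%) at 15 to 20 kb. A longer domain offers more bases to a SOX10 peak, so mean fold, cover, peaks per domain and contact with H3K27me3 were also compared within these 4 length bins, and with the SOX10-holding domains weighted to the bin shares of the SOX10-free ones. The other values were taken over all lengths and so include the difference in length.

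**Figure D1:**
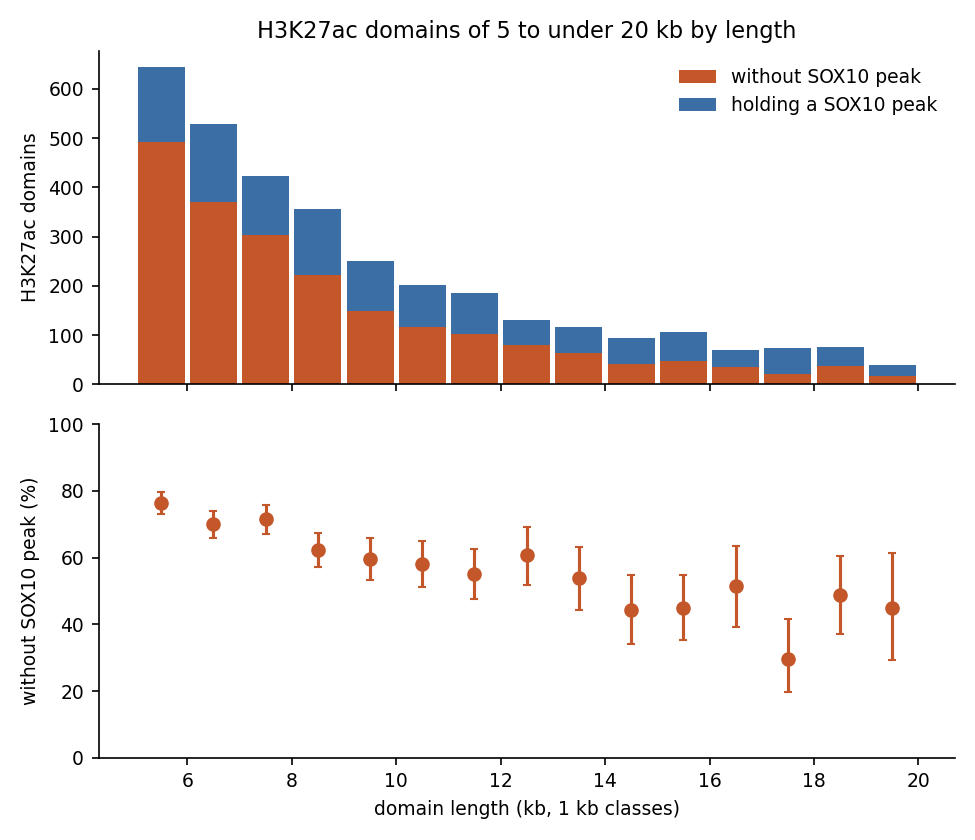
Number of H3K27ac domains per 1 kb class of length (upper panel, stacked) and the percentage of each class without a SOX10 peak (lower panel, points with exact 95% binomial intervals). SOX10-free domains make up 76.4% of the class of 5 to 6 kb and 45.0% of that of 19 to 20 kb, where only 40 domains lie.

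The limits of the length range cut through a continuous distribution. The SOX10-free domain just inside the lower limit, at 9183005 to 9188004 of scaffold AKCR02000005.1, was 5000 bp long with 77.9% of its length under 3 H3K27ac peaks. The one just outside, at 2701762 to 2706760 of AKCR02000061.1, was 4999 bp long with 14.7% of its length under 2 peaks. At the upper limit, the domain just inside was 19980 bp long, at 41678263 to 41698242 of AKCR02000005.1, with 6 peaks over 87.2% of its length. The one just outside was 20197 bp long, at 46532 to 66728 of AKCR02000055.1, with 7 peaks over 51.7%. Coordinates count from 1 on the scaffolds that the peak lists name, which are of the AKCR02 series (build not given in the sources used here), and the genes in these regions were not looked up.

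Taken per domain, acetylation was weaker in SOX10-free domains than in SOX10-holding ones. The mean fold enrichment of a domain, the average of its peaks' folds over local background (the authors' deposited values) weighted by peak width, had a median of 4.85 (95% interval of the median 4.77 to 4.92; interquartile range 3.93 to 6.13) in SOX10-free domains. In SOX10-holding domains the median was 6.08 (5.89 to 6.24; interquartile range 4.86 to 7.60). The groups overlapped widely, and the interquartile ranges shared the stretch between 4.86 and 6.13. Within length bins the difference remained: at 5 to 7.5 kb the medians were 4.58 in SOX10-free and 5.56 in SOX10-holding domains, and at 15 to 20 kb they were 5.24 and 6.43, in the same order. Averaged with the SOX10-free bin shares as weights, the bin medians came to 4.80 in SOX10-free and 5.90 in SOX10-holding domains (difference −1.10). The highest fold of any peak in the domain had a median of 5.92 in SOX10-free domains and 7.46 in SOX10-holding ones. Domains with a mean fold of at least 10 numbered 55 of the SOX10-free (2.62%) and 115 of the SOX10-holding (9.62%). Intervals here cover counting error only, domains of 1 library are not replicates, and no test across samples was possible with 1 library per target.

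Acetylated peaks also filled less of a SOX10-free domain. On average 50.2% of its length lay under H3K27ac peaks (SD 20.8 over 2101 domains), against 61.5% (SD 20.8 over 1196 domains) in SOX10-holding domains. In SOX10-free domains this cover was nearly the same in all 4 length bins, between 49.9% and 50.6%, and in SOX10-holding domains between 60.9% and 62.2%. Weighted by length the difference was −11.5 percentage points. The widest peak of a domain had a median of 2073 bp in SOX10-free and 3303.5 bp in SOX10-holding domains, and it covered at least 50% of the domain in 12.9% (11.5 to 14.5%) of SOX10-free and 26.1% (23.6 to 28.7%) of SOX10-holding domains. The widest gap between neighbouring peaks had a median of 3119 bp in the 2055 SOX10-free domains with more than 1 peak and 2826 bp in the 1125 such SOX10-holding domains.

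Cover and fold moved together. When SOX10-holding domains were weighted by length and by quartile of fold, the difference in cover was −5.55 percentage points. When they were weighted by length and by quartile of cover, the difference in fold was −0.67. Across quartiles of the mean fold over all 3297 domains, from lowest to highest, the share without SOX10 was 83.2%, 68.8%, 59.7% and 43.2%. A rise of SOX10 overlap with the strength and width of single H3K27ac peaks was already known from these lists, so the domain values are the same pattern in another form and not independent support for it.

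**Figure D2:**
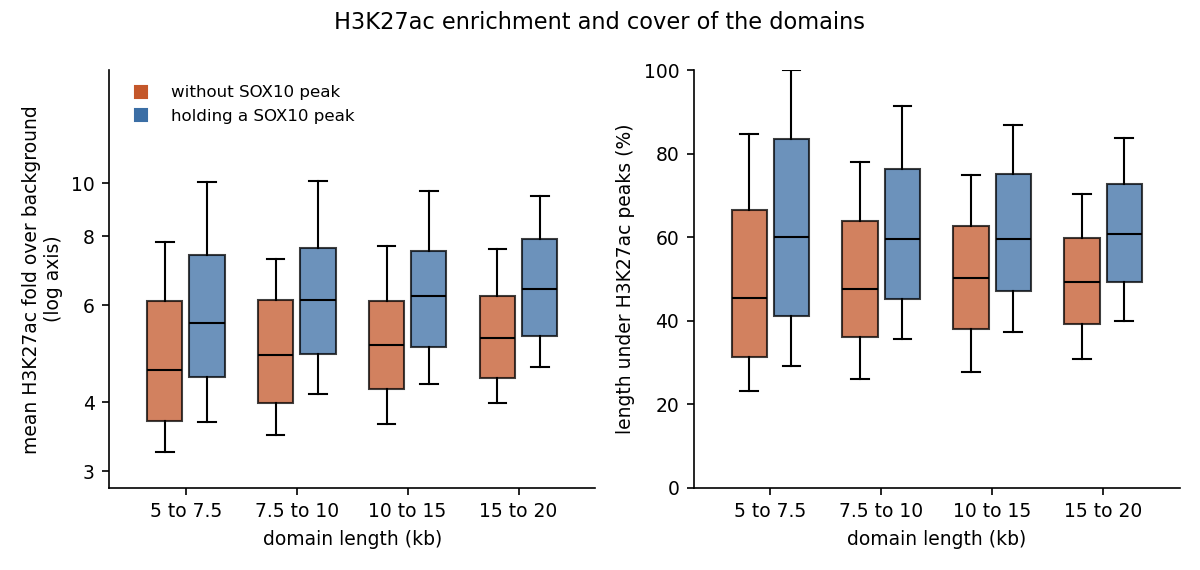
Width-weighted mean H3K27ac fold per domain on a log axis (left) and percentage of the domain length under H3K27ac peaks (right), by length bin, for domains without and with a SOX10 peak. Boxes show the quartiles and the median, and whiskers the 10th and 90th percentiles; in each bin the SOX10-free box sits lower, and the boxes overlap.

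At like length SOX10-free domains were made of slightly more peaks. Both groups had a median of 3 peaks, and the unweighted means were 3.40 ± 1.41 peaks in SOX10-free and 3.40 ± 1.55 in SOX10-holding domains (SD over domains). Within length bins SOX10-free domains had the higher mean each time: 2.67 against 2.43 at 5 to 7.5 kb, 3.39 against 2.99 at 7.5 to 10 kb, 4.36 against 3.82 at 10 to 15 kb and 5.79 against 5.07 at 15 to 20 kb. Weighted by length the difference was 0.37 peaks, and it was 0.053 with peaks joined over 10 kb. A single peak made up 46 SOX10-free domains (2.19%, 1.61 to 2.91%) and 71 SOX10-holding domains (5.94%, 4.67 to 7.43%). Over domains of all lengths, the median peak was 798 bp wide in SOX10-free and 1088 bp in SOX10-holding domains.

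The centre of the strongest peak fell in the central 50% of the domain in 33.5% (31.4 to 35.5%) of SOX10-free and 45.9% (43.1 to 48.8%) of SOX10-holding domains. A peak that covers at least 50% of its domain has its centre there by construction. The widest peak covered that much in 12.9% of SOX10-free and 26.1% of SOX10-holding domains. These shares therefore mix width with position, and position alone was not tested. In the order of the peaks the intervals of the groups overlapped, and no difference was tested. Among domains of 3 peaks, the strongest was an outer one in 66.9% (63.2 to 70.4%) of SOX10-free and 70.4% (65.2 to 75.2%) of SOX10-holding domains. With 4 peaks the shares were 48.7% (43.9 to 53.5%) and 47.0% (40.3 to 53.9%), and with 5 peaks 42.4% (35.4 to 49.6%) and 35.0% (27.1 to 43.5%), in the same order, so the direction at 3 peaks was the opposite of that at 4 and 5. By construction outer peaks are a larger part of a domain with fewer peaks, and a preference for the edge was not tested. The strongest peak was also the widest in 59.9% of SOX10-free and 68.7% of SOX10-holding domains with at least 2 peaks. The domain with the most peaks, 10, spanned 9988 to 28982 of AKCR02000469.1, a scaffold that spans only 29.0 kb and has no SOX10 peak. The next, with 9 peaks each, lay at 139887 to 156911 of AKCR02000147.1 and at 179576 to 198451 of AKCR02000205.1, with SOX10 summits 23.0 kb and 14.1 kb away.

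The most strongly acetylated SOX10-free domains lay on scaffolds with peaks over a few kb as well as on some that spanned many Mb. The highest mean fold, 19.3, belonged to a domain of 8340 bp at 111 to 8450 of AKCR02000895.1, where the last peak of any list ended at 9.22 kb, and had 49.4% of its length under H3K27me3. Domains of fold 17.1 and 17.0 lay at 1 to 6275 of AKCR02000643.1 and at 90 to 10000 of AKCR02000850.1, with no peak of any list beyond them. On these 3 scaffolds there was no SOX10 peak at all. On long scaffolds the highest was 17.1, at 1062611 to 1069666 of AKCR02000015.1, with 3 peaks over only 29.4% of 7056 bp and the nearest SOX10 summit 123 kb away. A domain of fold 16.5 at 4290190 to 4297514 of AKCR02000030.1 was covered over 86.0% of its length and lay 44.2 kb from a summit. The domain at 86048151 to 86053251 of AKCR02000001.1 had a mean fold of 16.4 and held the peak of highest fold of any SOX10-free domain, 32.7. The last of these 8 domains were at 12133287 to 12145828 of AKCR02000004.1, with fold 15.6 and a summit 13.0 kb away, and at 150586 to 162049 of AKCR02000143.1, with fold 15.5 and a summit 45.3 kb away. The 8 domains were 5101 to 12542 bp long.

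SOX10-free domains touched H3K27me3 more often than SOX10-holding domains of like length. At least 1 base was shared with an H3K27me3 peak in 505 of 2101 SOX10-free domains (24.0%, 22.2 to 25.9%). The same held for 189 of 1196 SOX10-holding domains (15.8%, 13.8 to 18.0%) and for 15.6% of all 17608 H3K27ac domains. Most of the 17608, namely 13807, were under 5 kb. Touching was more frequent in longer bins of both groups, so 15.6% is not a reference of like length. With the SOX10-holding domains weighted by length the shares were 24.0% and 14.1%, a difference of 9.95 percentage points (95% normal interval over the length bins 7.21 to 12.7). The difference had the same direction in each length bin: 19.9% of SOX10-free and 11.5% of SOX10-holding domains at 5 to 7.5 kb, 23.4% and 13.4% at 7.5 to 10 kb, 31.3% and 17.2% at 10 to 15 kb, and 34.8% and 24.8% at 15 to 20 kb. Only in the last bin did the exact intervals overlap (27.5 to 42.7% and 19.02 to 31.2%), which is no verdict on the difference there.

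The size of this difference depended on the scaffolds. The span of a scaffold means the highest peak end of any list, a lower limit of its length. On scaffolds spanning at least 1 Mb, 13.3% (11.7 to 15.1%) of 1618 SOX10-free and 9.67% (7.92 to 11.7%) of 1013 SOX10-holding domains touched H3K27me3, and the length-weighted difference was 4.35 percentage points (1.86 to 6.85). On scaffolds of 10 Mb or more the shares were 6.61% (5.07 to 8.45%) in SOX10-free and 5.33% (3.68 to 7.45%) in SOX10-holding domains, with overlapping intervals. On those of 1 to 10 Mb they were 21.6% (18.7 to 24.8%) and 15.98% (12.6 to 19.9%), also with overlapping intervals. On those of 0.1 to 1 Mb they were 57.8% (52.2 to 63.3%) and 42.4% (34.2 to 50.9%), without overlap. On scaffolds under 0.1 Mb the order was the other way, with 63.8% (55.9 to 71.2%) of 163 SOX10-free and 76.9% (60.7 to 88.9%) of 39 SOX10-holding domains. These intervals overlapped too. SOX10-free domains lay on scaffolds under 1 Mb more often, and with weighting by length and scaffold class together the difference was 5.11 percentage points (2.34 to 7.88).

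**Figure D3:**
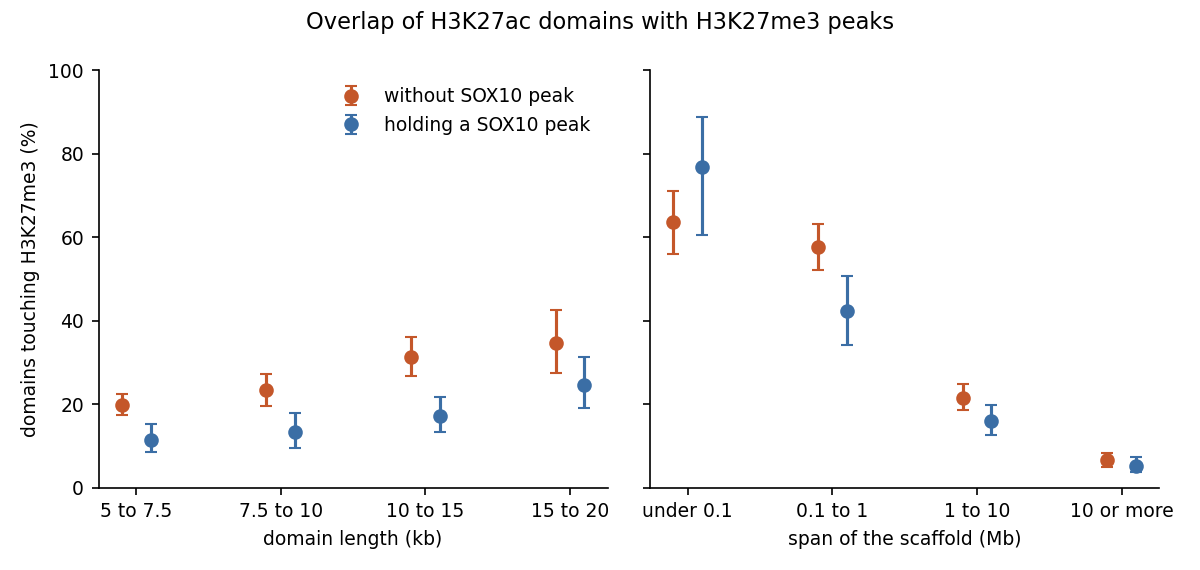
Percentage of domains that share at least 1 base with an H3K27me3 peak, with exact 95% binomial intervals, by domain length (left) and by the span of the scaffold (right). SOX10-free domains lie higher in all 4 length bins. By scaffold both groups rise from under 7% on the longest scaffolds to over 60% on the shortest, where SOX10-free domains lie lower with overlapping intervals.

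Most of these overlaps were partial. Among the 505 SOX10-free domains that touched H3K27me3, a median of 9.25% of the length was trimethylated (interquartile range 4.51 to 23.1%), and among the 189 SOX10-holding ones 7.0% (3.65 to 14.8%). At least 10% of the length was under H3K27me3 in 11.3% (10.0 to 12.8%) of all SOX10-free and 5.85% (4.59 to 7.34%) of all SOX10-holding domains. At least 50% was under it in 43 SOX10-free domains (2.05%, 1.49 to 2.75%) and 13 SOX10-holding ones (1.09%, 0.580 to 1.85%), with overlapping intervals. Pooled over all domains, H3K27me3 lay on 4.55% of the acetylated bases and 4.22% of the gap bases of SOX10-free domains, and on 2.39% of the acetylated and 2.25% of the gap bases of SOX10-holding domains. The overlap was thus not confined to the gaps between acetylated peaks: 489 of the 505 touching SOX10-free domains had trimethylated bases on an H3K27ac peak. The strongest H3K27me3 peak that touched a domain had a median fold of 4.02 for SOX10-free and 4.22 for SOX10-holding domains. A joined H3K27me3 domain of at least 20 kb overlapped 83 of the 505 SOX10-free domains (16.4%) and 35 of the 189 SOX10-holding ones (18.5%).

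Acetylation was also compared between domains that touched H3K27me3 and those that did not. SOX10-free domains that touched it had a median fold of 4.70 and 43.0% mean cover, against 4.88 and 52.4% in those that did not. In SOX10-holding domains the median fold was the higher one in touching domains, at 6.79 (interquartile range 5.19 to 8.66). In untouched ones it was 5.91 (interquartile range 4.85 to 7.40). Cover was again lower, at 56.9% in touching and 62.4% in untouched domains. These medians were not weighted by length or scaffold class. Touching domains were also longer, with medians of 8235 bp against 7388 bp among SOX10-free and 11019 bp against 9071 bp among SOX10-holding domains. By quartile of fold, the share touching H3K27me3 was 26.5% in SOX10-free and 12.2% in SOX10-holding domains of the lowest quartile. In the highest quartile it was 24.7% (20.3 to 29.5%) and 20.5% (16.9 to 24.5%), in the same order, with overlapping intervals. By quartile of cover, from lowest to highest, it was 33.7%, 23.8%, 20.5% and 12.9% in SOX10-free and 19.8%, 18.2%, 15.7% and 12.8% in SOX10-holding domains. Weighted by length and quartile of cover, the difference was 8.71 percentage points (5.72 to 11.7). These splits were not tested.

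Among SOX10-free domains with at least 30% of their length under H3K27ac, the one most covered by H3K27me3 was at 395533 to 407125 of AKCR02000171.1, with 34.9% under H3K27ac and 92.8% under H3K27me3. The next, at 1351814 to 1356914 of AKCR02000077.1, had 48.3% under H3K27ac and 89.9% under H3K27me3, on a scaffold with a span of 2.58 Mb. The others were at 64818 to 69940 of AKCR02000230.1 (78.6% under H3K27me3), at 65403 to 70547 of AKCR02000316.1 (73.2%) and at 57554 to 64878 of AKCR02000169.1 (72.5%). Their mean H3K27ac folds were low to middling for the group, from 3.0 to 5.37. Of all SOX10-free domains 2 lay wholly under H3K27me3.

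The distance to SOX10 was measured from the domain edge. The nearest SOX10 summit lay a median of 41159.5 bp away (95% interval of the median 38737 to 43678 bp; interquartile range 18172 to 90374 bp) for the 1908 SOX10-free domains whose scaffold had a SOX10 peak. For 1147 SOX10-holding domains, the nearest summit of a peak outside the domain was at a median of 37253 bp (33661 to 40350 bp). The intervals of the medians overlapped. For SOX10-free domains the median was 52863 bp with H3K27ac peaks joined over 10 kb and 70655 bp with only SOX10 peaks of −log10 q of at least 5. Within 50 kb of the edge lay such a summit for 56.2% (54.0 to 58.5%) of SOX10-free and 59.0% (56.1 to 61.9%) of SOX10-holding domains, and within 100 kb for 78.1% and 78.8%. The nearest outside SOX10 peak was of like strength, with a median fold of 3.37 beside SOX10-free and 3.31 beside SOX10-holding domains, and it touched H3K27ac in 61.6% of cases in both groups. Distances within 5 kb were rare in both groups, at 52 SOX10-free (2.73%, 2.04 to 3.56%) and 41 SOX10-holding domains (3.57%, 2.58 to 4.82%). In only 1 of the 52 SOX10-free domains did the SOX10 peak touch H3K27ac. By construction no further H3K27ac peak lies within 5 kb of a domain.

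**Figure D4:**
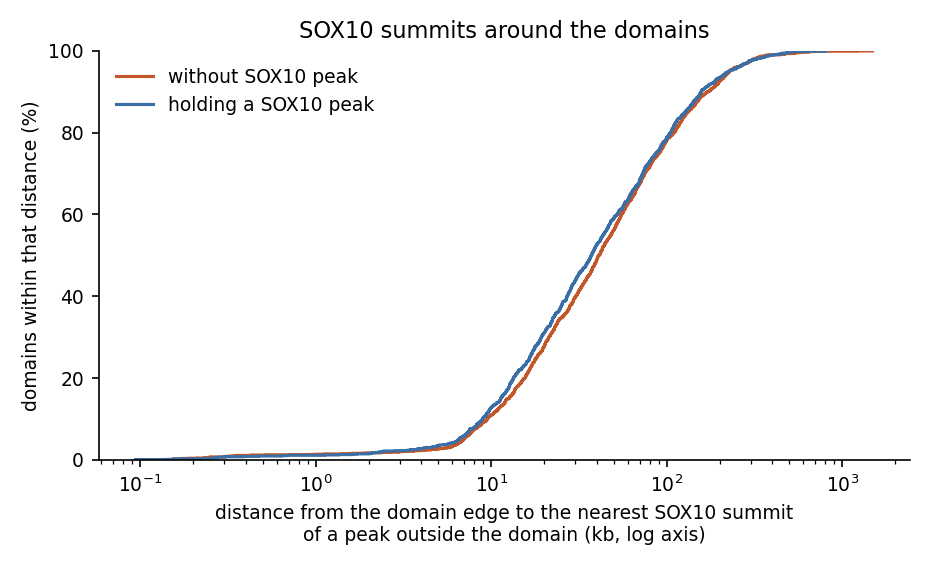
Cumulative percentage of domains against the distance from the domain edge to the nearest summit of a SOX10 peak outside the domain, on a log axis, for 1908 SOX10-free and 1147 SOX10-holding domains. The curves run close together and cross 50% near 41 kb and 37 kb; few domains have a summit within 5 kb.

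The acetylation around the domains was measured where scaffolds allowed it. Domains with at least 100 kb of scaffold span on both sides numbered 1619 SOX10-free and 1021 SOX10-holding. Within 50 kb on both sides of these lay 8.23 kb under H3K27ac for SOX10-free domains (SD 7.58) and 8.09 kb for SOX10-holding ones (SD 7.46). Outside SOX10 summits there came to 11.8 per 100 kb of H3K27ac around SOX10-free domains and 13.4 around SOX10-holding ones. The nearest other domain of 5 to under 20 kb was itself SOX10-free for 65.7% (63.5 to 67.8%) of SOX10-free and 58.5% (55.6 to 61.3%) of SOX10-holding domains, where 63.7% of all domains of that length were; since SOX10 overlap chose the groups, these shares are a description. The neighbours lay at a median of 39039 bp from SOX10-free and 44272.5 bp from SOX10-holding domains. An acetylated domain of at least 20 kb lay within 50 kb of 13.5% (12.1 to 15.1%) of SOX10-free and 11.7% (9.94 to 13.7%) of SOX10-holding domains. The 386 of 505 SOX10-free domains that touched H3K27me3 and had SOX10 on their scaffold lay a median of 38316 bp (33178 to 44236 bp) from a summit. The 1522 of 1596 that did not touch it and had SOX10 on their scaffold lay a median of 42009 bp (39132 to 45065 bp) away, and the intervals overlapped. On scaffolds of at least 1 Mb, where none was lost, the medians were 40835.5 bp (33336 to 52463 bp) and 42469 bp (39163 to 45804 bp), in the same order.

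The SOX10-free domains farthest from SOX10 on scaffolds of at least 1 Mb were near scaffold ends or in long stretches without summits. A domain at 9887854 to 9893598 of AKCR02000026.1 lay 1493 kb from the nearest summit, and another on the same scaffold, at 9599626 to 9605132, lay 1205 kb away. The scaffold has a span of 9.93 Mb, so both are in its last part. A domain at 1312172 to 1319685 of AKCR02000074.1 was 804 kb away. A pair on AKCR02000020.1, at 12037849 to 12046479 and at 12017364 to 12025588, was 673 kb and 652 kb away. None of these 5 had a base under H3K27me3, which only 13.3% of all SOX10-free domains on scaffolds of at least 1 Mb touched. Their mean H3K27ac folds ran from 3.49 to 6.24. A further 193 SOX10-free domains were on 156 scaffolds without any SOX10 peak, the longest with a span of 405 kb.

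By scaffold, SOX10-free domains were spread widely but reached further into the short scaffolds. They were found on 394 scaffolds, 120 of them among the 127 of at least 1 Mb, which carried 77.0% of the SOX10-free and 84.7% of the SOX10-holding domains. Per Mb of span, scaffolds of 10 Mb or more carried 1.35 SOX10-free and 0.906 SOX10-holding domains, and those of 1 to 10 Mb carried 2.05 and 1.17. The densities on scaffolds of 0.1 to 1 Mb were 5.53 SOX10-free and 2.49 SOX10-holding domains per Mb. On scaffolds under 0.1 Mb they were 11.2 and 2.67, but a span set by the peaks themselves overstates density there. The share without SOX10, which needs no span, was 59.8% (57.2 to 62.3%) on scaffolds of 10 Mb or more, 63.7% (60.9 to 66.5%) on those of 1 to 10 Mb, 69.0% (64.5 to 73.2%) on those of 0.1 to 1 Mb and 80.7% (74.6 to 85.9%) on those under 0.1 Mb. A domain within 5 kb of the start or span end of its scaffold may be cut short. Such domains were 8.81% (7.63 to 10.1%) of SOX10-free and 4.68% (3.56 to 6.04%) of SOX10-holding domains. The span end is itself the last peak end, so some domains lie there by construction. Whether the assembly cut them is unknown. The lower fold of SOX10-free domains was found in every scaffold class: the medians were 4.81 in SOX10-free and 6.10 in SOX10-holding domains at 10 Mb or more, 4.99 and 5.94 at 1 to 10 Mb, 4.69 and 6.26 at 0.1 to 1 Mb, and 4.83 and 6.99 under 0.1 Mb.

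On the 127 scaffolds of at least 1 Mb, the density of SOX10-free domains had a median of 1.68 per Mb (interquartile range 1.01 to 2.58) and that of SOX10-holding domains a median of 1.04 (0.587 to 1.56). SOX10-free domains outnumbered SOX10-holding ones on 89 scaffolds, were fewer on 20 and equal on 18, and some of the 18 had neither. On these scaffolds together, 61.5% of the domains of that length were SOX10-free. A majority on most scaffolds therefore says little beyond that share. Both densities rose together (Spearman's rho = 0.55 and Pearson's r = 0.49 across 127 scaffolds, and r = 0.56 without the 2 scaffolds farthest from the median SOX10-free density). Both densities share the H3K27ac list and the span, so the coefficients are descriptions without a test. The highest density of SOX10-free domains, 9.85 per Mb, was on AKCR02000104.1, with 17 SOX10-free and 4 SOX10-holding domains on 1.73 Mb, and 11 of the 17 touched H3K27me3. AKCR02000119.1 had the most SOX10-free domains without any SOX10-holding one, 9 on 1.38 Mb, of which 5 touched H3K27me3, although the scaffold had 10 SOX10 peaks elsewhere. Over all scaffolds of 1 to 10 Mb, 21.6% of SOX10-free domains touched H3K27me3.

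**Figure D5:**
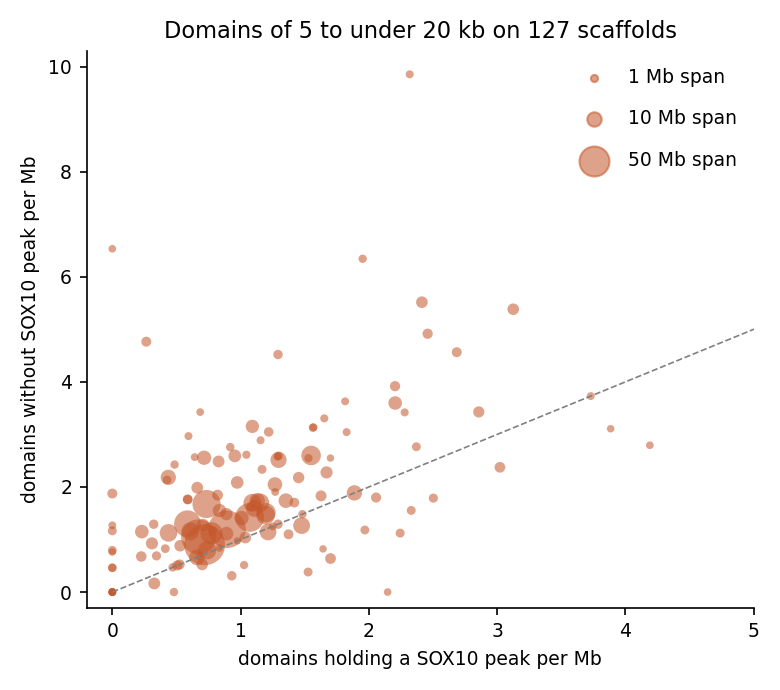
Density of SOX10-free domains (vertical axis) against that of SOX10-holding domains (horizontal axis) on the 127 scaffolds that span at least 1 Mb; the area of a point grows with the span, and the dashed line marks equal densities. Most points lie above the line, where 61.5% of all these domains were SOX10-free. The highest point is at 9.85 SOX10-free domains per Mb, and one at 6.53 per Mb has no SOX10-holding domain.

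What counts as 1 domain depended on the gap allowed between peaks. With gaps of up to 2 kb in place of 5 kb, 601 of the 2101 SOX10-free domains (28.6%) kept both ends, and 1500 broke into pieces. Of the broken ones, 307 still left a SOX10-free domain of 5 to under 20 kb with other bounds. With gaps of up to 10 kb, 1069 (50.9%) kept both ends, 266 grew but stayed SOX10-free and under 20 kb, 426 joined a SOX10-free domain of at least 20 kb, and 304 joined one of at least 20 kb with SOX10. A further 36 joined a domain under 20 kb with SOX10.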

How the data were processed

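MACS3 3.0.0, SAMtools 1.16, Bowtie2 2.2.9 and bcl2fastq 2.20 were used, per the submitters' processing notes, which give no order or settings. The sources used here name neither the control library nor the genome build. The deposited peak lists, 1 per library, give a score (not used), a fold ratio over local background, and p-value and q-value as −log10; in these formats the deposited fold is a region average for the histone marks and that of the summit for SOX10.

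Peaks were joined and compared with Python 3.11.15, pandas 2.3.3, numpy 2.4.6 and scipy 1.17.1, and the interval code was tested on simulated data (4880 values, 0 wrong). An overlap meant at least 1 base. Distances ran from the domain edge to a summit. Share intervals are exact 95% binomial, and median intervals come from order statistics. Whether intervals overlap is a description of counting error and no verdict on a difference. Each target had 1 library, so nothing was tested. The domains, the comparisons and the rule for named regions were chosen with earlier results of these data known: the 8 of highest fold, the 5 most under H3K27me3 with at least 30% H3K27ac cover, the 5 farthest from SOX10 on scaffolds of at least 1 Mb, the 3 with most peaks, those at each length limit, and the scaffolds of highest density. Alternatives were other gaps, SOX10 rules, thresholds, scaffolds and weightings.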

Additional observations from a re-analysis of the deposited data

How the results depend on the processing

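Of 87 recalculations over 9 results, 59 stayed within the interval of the first value (or, where it had none, within 1.5 times it). Another 28 moved further and 0 reversed. Only the differences between the groups could be counted as reversed. The domain count, the 2 shares and the median distance could not. With a gap of 2 kb there were 1306 SOX10-free domains (57.3% of the length range), 30243 bp from SOX10 at the median, with a difference in peaks of 0.69 and in density of 0.16 per Mb, against 0.60 as first computed. With 10 kb the share was 67.6%, the distance 52863 bp and the difference in peaks 0.053. With SOX10 peaks of −log10 q of at least 5, which are fewer by construction, the share was 76.2%, the distance 70655 bp and the density difference 1.26. With H3K27ac peaks of −log10 q of at least 3 the share was 57.1%, the distance 38550 bp and the density difference 0.20. Restricted to scaffolds of at least 1 Mb, the share came to 61.5%, 13.3% touched H3K27me3 and the difference in touching was 4.35 percentage points. With H3K27me3 peaks of −log10 q of at least 3 the share touching was 13.8% and the difference 4.67; with at least 10% of the length they were 11.3% and 5.55. Unweighted by length, the difference in peaks was 0.0063. The following settings were chosen after seeing the data: the difference in touching was 15.1 on scaffolds under 1 Mb and 5.11 weighted also by scaffold class; weighted also by fold quartile, the differences in peaks and cover were 0.16 and −5.55; weighted also by cover quartile, those in peaks and fold were 0.20 and −0.67. Why the values moved was not tested. The lower fold and cover and the more frequent touching kept their direction in these recalculations. On scaffolds under 0.1 Mb alone, touching ran the other way (63.8% of SOX10-free and 76.9% of SOX10-holding domains), with overlapping intervals. No paired analysis was possible because the 3 lists are single libraries of different targets, and no replicate could be left out. A SOX10 site below the caller's threshold would be missed, and read depth is unknown.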

Other observations

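Within SOX10-holding domains the acetylated peaks that carried SOX10 stood apart from their neighbours in the same domain. The 1257 peaks that touched SOX10 had a median fold of 6.59 and a median width of 2834 bp, whereas the other 2805 peaks of these domains had medians of 3.53 and 727 bp. The 7149 peaks of SOX10-free domains lay nearer to the second set but slightly above it, with medians of 3.78 and 798 bp. In 839 of the 1196 SOX10-holding domains (70.2%) the peak of highest fold was one that touched SOX10, and in 81 SOX10 lay only in a gap between acetylated peaks. The 839 include, by construction, the 71 domains of a single peak. Of all 4062 acetylated peaks of these domains 1257 touched SOX10, and wider peaks offer more bases to it. SOX10 chose these peaks, and the values are a description without a test.

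Some long scaffolds differed widely in the make-up of their domains of 5 to under 20 kb; they were picked after their values were seen. Among 64 scaffolds with at least 10 such domains, the share without SOX10 had a median of 60.7% (interquartile range 54.5 to 69.0%). It was highest on AKCR02000059.1, with 18 SOX10-free domains and 1 SOX10-holding domain on a span of 3.78 Mb that carried 24 SOX10 peaks, and 1 of the 18 touched H3K27me3. It was lowest on AKCR02000051.1, with 3 SOX10-free and 8 SOX10-holding domains on 4.70 Mb, and none of the 3 touched H3K27me3. Over all scaffolds of 1 to 10 Mb, 21.6% of SOX10-free domains touched H3K27me3, and counts as small as these say little beside that share.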
